A study of Rattus norvegicus with 4 samples.

Results

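Eps8 and the paralemmins are small families of proteins that work where actin filaments meet the cell membrane. Eps8, first found as a substrate of the epidermal growth factor (EGF) receptor kinase, caps and bundles actin filaments and, with Abi1 and Sos1, switches on the GTPase Rac. Paralemmin is anchored to the inner face of the plasma membrane by lipids and shapes membrane protrusions, and its relative palmdelphin is mainly cytosolic. Olfactory ensheathing cells, in which both families were measured here, are the glia around olfactory axons between nose and brain, and they extend long, mobile processes.

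The genes described are Eps8, Eps8l1 and Eps8l2 of the Eps8 family and Palm (paralemmin) and Palmd (palmdelphin) of the paralemmin family. They are 5 of 35658 gene names on the arrays, and 6 of 41012 probes carry these names after an ending for predicted or mapped genes is removed. Eps8l1 and Palmd were chosen by their ratios between the 2 tissues, which were among the largest of these data, so these ratios are given as a description without a test. The other 3 genes were taken as their relatives, and 2 further relatives with a probe, Eps8l3 and Akap2, are given beside them. The question is whether Eps8l1 and Palmd were alone in their families in being higher in mucosa cells. Of these 7 genes, 6 entered the fit across all gene names, and Eps8l2 did not because its probe was too dim.

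The cells were cultures of olfactory ensheathing cells from 2 tissues of male Fischer rats, the olfactory mucosa and the olfactory bulb, with ages not given in the labels. Both were grown by 1 protocol. Each of 4 arrays held 1 biological replicate, with cDNA of mucosa cells in the Cy5 channel and of the paired bulb cells in the Cy3 channel. All 4 lay on 1 slide with 1 scan time and had the same dye orientation, so effects of dye and of tissue cannot be told apart. The RNA was amplified by a global PCR, which can change the proportions of transcripts. The median spot signal was 567 to 842 in the mucosa channel and 342 to 382 in the bulb channel. The scanner software flagged 82.8% to 91.1% of spots as well above background in the mucosa channel and 88.4% to 89.5% in the bulb channel. With 4 arrays, precision is limited for every value. Levels below are log2 intensities after normalisation, and a log2 ratio is the mucosa level minus the bulb level on the same array. A gene was called where limma, fitted to all 31868 gene names tested, gave an adjusted p under 0.05. By that rule 3.24% of all gene names were called higher and 3.39% lower in mucosa cells, and the smallest call was 1.85-fold.

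A ratio here is a reading of a single oligonucleotide of 60 bases, so the probes that carry the main values are printed 5′ to 3′ as the array files give them. Capitals mark the longest run that a probe shares with the probe of another gene of these families. It was 8 bases for Palmd and Eps8, and 7 bases for Eps8l1, which matched the opposite strand of the Eps8l2 probe. The Eps8l1 and Palm probes also shared a run of 7 bases on the same strand, which is not marked separately.
Eps8l1: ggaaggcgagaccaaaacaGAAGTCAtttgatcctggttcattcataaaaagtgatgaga
Palmd: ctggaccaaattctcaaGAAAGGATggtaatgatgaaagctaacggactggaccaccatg
Eps8: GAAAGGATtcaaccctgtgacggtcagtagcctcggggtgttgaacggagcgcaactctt
In the rn4 build of the file annotation the Eps8l1 probe lies on chromosome 1 from 68074171 to 68074230 and the Palmd probe on chromosome 2 from 213180497 to 213180556, both on the minus strand. The brighter Eps8 probe, shown above, is placed from 174606069 to 174607344 of chromosome 4 on the minus strand, a span of 1276 bases for a probe of 60. No exon annotation of that build was used here. The GC content was 40.0% for the Eps8l1 probe, 45.0% for Palmd and 55.0% for Eps8.

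Eps8l1 encodes a relative of Eps8 that, in mouse fibroblasts lacking Eps8, can restore actin remodelling. Its level was 12.80, 12.13, 12.50 and 13.16 in mucosa cells of replicates 1 to 4, against 8.60, 7.30, 8.13 and 7.74 in bulb cells. The groups did not overlap, and the lowest mucosa level lay well above the highest bulb level. Across all gene names, such a separation in this direction was found for 11.5%. The log2 ratios were 4.20, 4.83, 4.37 and 5.43, with a mean of 4.71 ± 0.55 (SD, n = 4), or 26.1-fold. The probe was well above background on all 4 arrays in mucosa cells and on all 4 in bulb cells. Its bulb signal before correction was low, however, at 73.7 to 233 over backgrounds of 23 to 32. The fold size therefore depends in part on how the background was handled. Eps8l1 stood at rank 6 of 11059 gene symbols, between the transcription factor gene Pax3 (4.73 ± 0.18) and Palmd.

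Palmd encodes palmdelphin, a coiled-coil protein of the paralemmin family that has been tied to muscle differentiation in mouse cells. Its level was 12.42, 12.26, 13.20 and 11.46 in mucosa cells, against 6.83, 9.02, 7.39 and 7.37 in bulb cells. Again no bulb level reached a mucosa level, but the bulb level of replicate 2 was higher than the other 3. The log2 ratios were 5.59, 3.24, 5.81 and 4.08, with a mean of 4.68 ± 1.23 (SD, n = 4), or 25.7-fold. The spread of Palmd between arrays was thus wider than that of Eps8l1 and than the median SD of 0.526 over all gene names. The probe was well above background on all 4 arrays in both cells. Its bulb signal before correction was low, however, at 49.3, 86.3 and 90.8 in replicates 1, 3 and 4, over backgrounds of 29 to 31. The direction was thus measured, but the fold size depends in part on how the background was handled. Palmd stood at rank 7 of 11059 symbols, and the next below it was Thbs1, which encodes the matrix glycoprotein thrombospondin 1 (4.65 ± 0.25).

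**Figure D1:**
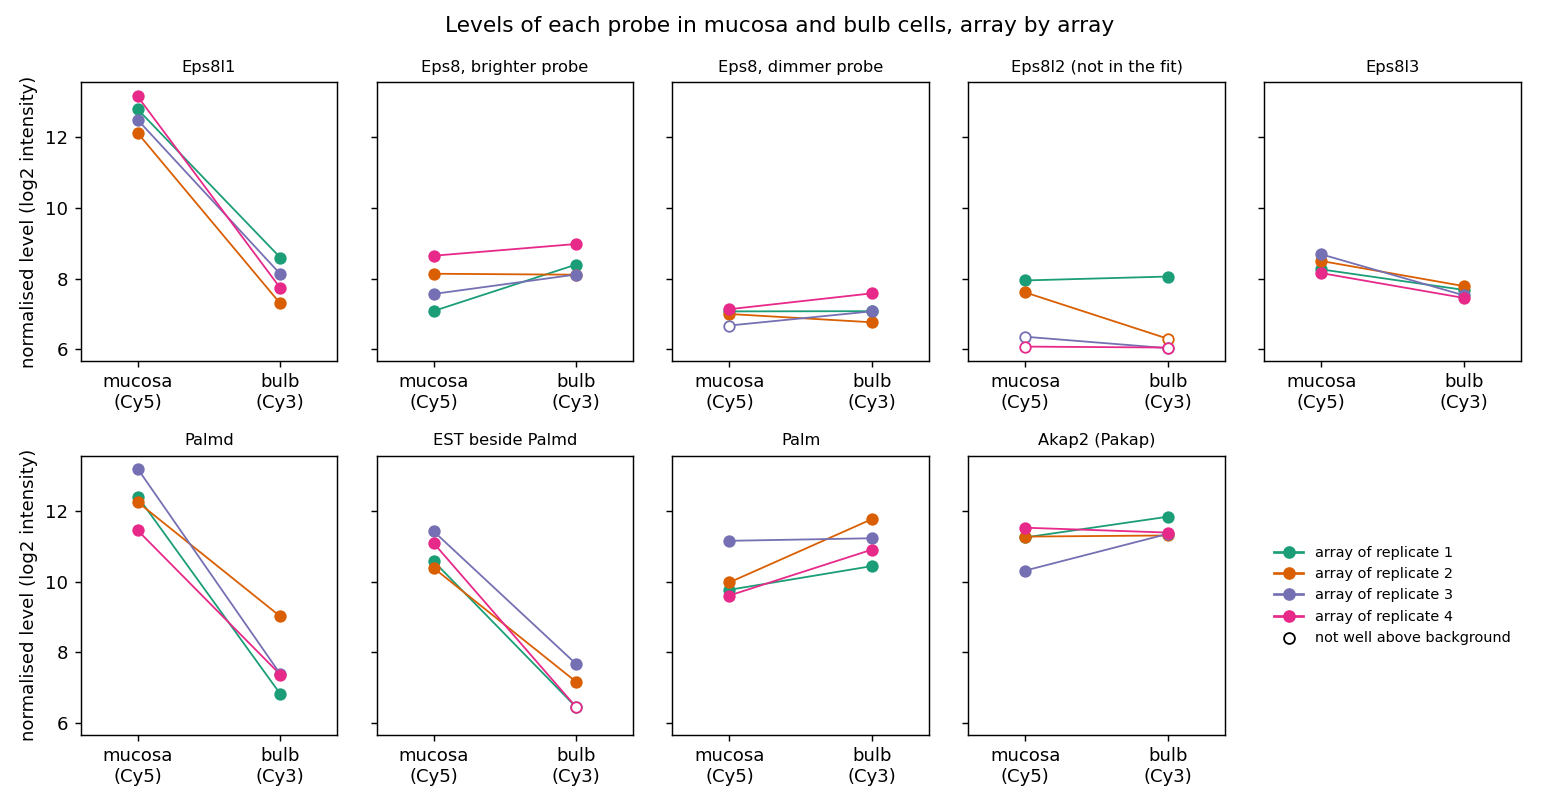
Normalised log2 intensity of each probe in mucosa cells (Cy5, left) and bulb cells (Cy3, right), with 1 line per array and open circles where a spot was not well above background. All lines of Eps8l1, Palmd and the EST probe beside Palmd fall steeply to the bulb side, and those of the other genes are flat or shallow. Levels of different probes are not comparable with each other.

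A second reading near Palmd came from a probe that the array names only by an expressed sequence tag (EST) from a rat heart library. It lies 633 bases from the Palmd probe, on chromosome 2 from 213179864 to 213179923, and is placed on the plus strand. Whether it measures the Palmd transcript was not tested, and the sources used here do not say whether labelling kept the strand. Its level was 10.59, 10.39, 11.43 and 11.10 in mucosa cells, against 6.45, 7.17, 7.67 and 6.45 in bulb cells. The probe was well above background on all 4 arrays in mucosa cells, but in bulb cells only on those of replicates 2 and 3. On these 2 arrays the log2 ratios were 3.23 and 3.76. On the arrays of replicates 1 and 4, where the bulb side was not well above background, they were 4.14 and 4.65, so those sizes are not measured on the bulb side. The only other probe within 100 kb of Palmd, for Sdfr2, lies 19276 bases away and had a log2 ratio of 0.58 ± 0.97, with an adjusted p of 0.405 by limma.

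Eps8, the founding member of its family, was not called. At its brighter probe the level was 7.08, 8.14, 7.57 and 8.65 in mucosa cells, against 8.40, 8.11, 8.12 and 8.98 in bulb cells. The groups overlapped, and 3 of 4 arrays had the lower level in mucosa cells. The mean log2 ratio was -0.54 ± 0.57 (SD, n = 4), with a 95% interval of -1.20 to 0.11 and an adjusted p of 0.285 by limma. The interval's upper end corresponds to a 1.08-fold higher level. The dimmer Eps8 probe, on chromosome 4 from 174602582 to 174602641, had a mean log2 ratio of -0.16 ± 0.33. It was well above background on 3 of 4 arrays in mucosa cells and on all 4 in bulb cells. A probe of an unnamed transcript cluster lies 373 bases from it and had -0.60 ± 0.35, with an adjusted p of 0.178 by limma.

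Eps8l2, which in mice is needed to keep the stereocilia of hair cells, was near the limit of the arrays. Its probe lies on chromosome 1 from 201560550 to 201560609 on the plus strand. The level was 7.95, 7.61, 6.35 and 6.08 in mucosa cells, against 8.06, 6.30, 6.03 and 6.05 in bulb cells. Only replicates 1 and 2 were well above background in mucosa cells, and only replicate 1 in bulb cells. The mean log2 ratio was 0.39 ± 0.64 (SD, n = 4), and 1 array, replicate 2, had 1.31. Without replicate 2 the mean was 0.08. The gene was therefore measured in too few arrays to say whether it differed, and it had no test in the fit.

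Eps8l3, the member that in mouse fibroblasts did not stand in for Eps8, came closest to the direction of Eps8l1. Its probe lies on chromosome 2 from 203451918 to 203451977 on the plus strand. The level was 8.26, 8.50, 8.69 and 8.16 in mucosa cells, against 7.68, 7.79, 7.53 and 7.45 in bulb cells. The groups did not overlap, and all 4 arrays had the higher level in mucosa cells. Such a separation was found for 11.5% of all gene names, and 8.19% of them had a higher ratio than Eps8l3. The mean log2 ratio was 0.79 ± 0.26 (SD, n = 4), or 1.73-fold, with a 95% interval of 0.29 to 1.29. The adjusted p of 0.0823 by limma did not pass the threshold. Treating the channels as unpaired gave an adjusted p of 0.0253 by limma. Eps8l3 thus had a ratio above 0 on every array but a much smaller one than Eps8l1, and its call depended on that setting.

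Palm, the lipid-anchored founding member of the paralemmins, had ratios in the opposite direction to Palmd. Its probe lies on chromosome 7 from 11400282 to 11400341 on the minus strand. The level was 9.77, 9.98, 11.16 and 9.61 in mucosa cells, against 10.45, 11.78, 11.23 and 10.91 in bulb cells. All 4 arrays had the lower level in mucosa cells, but the groups overlapped through the mucosa level of replicate 3. Levels lower in mucosa cells without overlap were found for 9.38% of all gene names. The mean log2 ratio was -0.96 ± 0.75 (SD, n = 4), a 1.94-fold lower level in mucosa cells. Its 95% interval was -1.73 to -0.19, and the adjusted p of 0.140 by limma did not pass. Without replicate 3 the mean was -1.25 and the adjusted p by limma was 0.0999.

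Akap2 is the array's name for an A-kinase anchor gene that the GRCr8 gene table holds, together with Palm2, in 1 locus named Pakap. Its probe lies on chromosome 5 from 75828794 to 75828852 on the plus strand. The level was 11.26, 11.28, 10.32 and 11.53 in mucosa cells, against 11.84, 11.31, 11.36 and 11.40 in bulb cells. The groups overlapped, and only replicate 4 had the higher level in mucosa cells. The mean log2 ratio was -0.38 ± 0.54 (SD, n = 4), with a 95% interval of -1.02 to 0.26 and an adjusted p of 0.428 by limma. No probe carried the name Palm2 or Palm3.

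**Figure D2:**
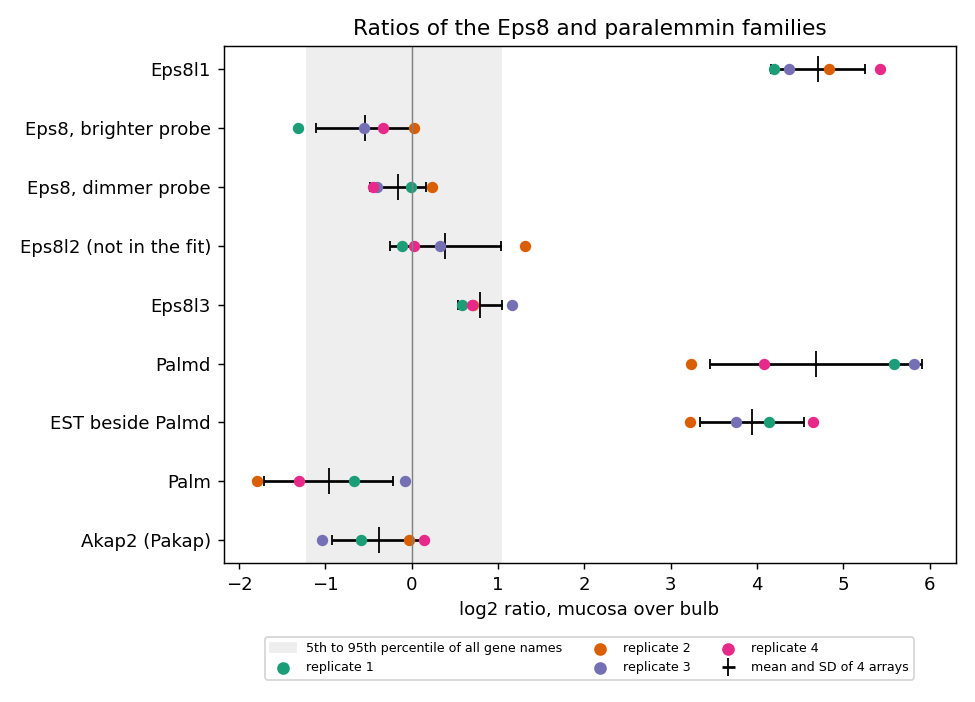
Log2 ratio of mucosa over bulb cells for each probe, with a coloured point per array and the mean and SD of the 4 arrays in black. The grey band spans the 5th to 95th percentile of all gene names, -1.21 to 1.03, and Eps8l1, Palmd and the EST probe beside Palmd lie to the right of it on every array.

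Within the Eps8 family, the log2 ratio of Eps8l1 exceeded that of Eps8 by 5.25 ± 0.46 and that of Eps8l3 by 3.92 ± 0.65 (SD over 4 arrays). No such difference is given for Eps8l2, whose probe was near background on most arrays. Within the paralemmin family, the ratio of Palmd exceeded that of Palm by 5.64 ± 0.54 and that of Akap2 by 5.06 ± 1.72. These are differences of ratios, not of levels. Palmd and Palm had their highest ratio in replicate 3 and their lowest in replicate 2, and their difference varied less between arrays than the ratio of Palmd did. Of the 4 relatives with a test, 0 were called by limma, against 6.62% of all gene names called in either direction, and 2 of them, Eps8l3 and Palm, had an unadjusted p under 0.05, as did 23.8% of all gene names. Eps8l1 and Palmd, chosen for large ratios, had larger ones than each of these 4 relatives on every array. For Eps8l2, measured in part, and for Palm2 and Palm3, the question was not answered.

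The gene symbols whose 4 ratios were nearest to those of Eps8l1, by Euclidean distance over the arrays and 11058 other symbols, were Pax3 at 0.697, the taurine transporter gene Slc6a6 at 0.868 and Thbs1 at 0.984. The ratios of Slc6a6 were 4.52, 4.92, 4.39 and 4.63, with a narrower range than those of Eps8l1. Nearest to Palmd were Klhdc8a, which encodes a kelch-domain protein, at 1.25, the microfibril gene Mfap5 at 1.75 and Omd, which encodes the bone proteoglycan osteomodulin, at 1.81. Klhdc8a had 5.42, 2.37, 5.04 and 3.68, with the same low replicates 2 and 4 as Palmd. The 4 arrays that define this likeness are those that defined the ratios, so it is a description.

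Genes that lie beside Eps8l1 on chromosome 1 had lower ratios, as had 99.98% of all gene names, and Eps8l1 was chosen for its large ratio. Within 100 kb, 10 other gene names were tested and 1 was called by limma, against 6.62% of all gene names. Their log2 ratios ran from -0.78 to 2.11. The nearest, LOC499076, had a probe 2909 bases away with 0.81 ± 0.36 and an adjusted p of 0.0931 by limma. Its other probe, 5872 bases away, had 0.26 ± 0.53. The called one was Ptprh, a receptor-type tyrosine phosphatase gene, with 2.11 ± 0.84 and an adjusted p of 0.0214, although its other probe had -0.17 ± 0.33. Without replicate 1, 2 or 4 its adjusted p by limma was 0.0919, 0.0908 or 0.0765. Ptprh and LOC499076 were singled out after their values were seen.

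The promoters of both genes are shown because the 2 genes shared a large ratio. Each is a window of 250 bases before to 50 after the start given in RefSeq's GRCr8 table, on the minus strand, and capitals mark CG dinucleotides. The Eps8l1 window lies at chr1:78401585-78401884 and the Palmd window at chr2:207626190-207626489.
Eps8l1: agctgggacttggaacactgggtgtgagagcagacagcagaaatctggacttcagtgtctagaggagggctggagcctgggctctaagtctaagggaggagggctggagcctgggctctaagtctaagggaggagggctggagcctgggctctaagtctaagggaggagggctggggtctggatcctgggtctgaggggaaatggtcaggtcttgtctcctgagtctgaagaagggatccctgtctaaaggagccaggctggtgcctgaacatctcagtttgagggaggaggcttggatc
Palmd: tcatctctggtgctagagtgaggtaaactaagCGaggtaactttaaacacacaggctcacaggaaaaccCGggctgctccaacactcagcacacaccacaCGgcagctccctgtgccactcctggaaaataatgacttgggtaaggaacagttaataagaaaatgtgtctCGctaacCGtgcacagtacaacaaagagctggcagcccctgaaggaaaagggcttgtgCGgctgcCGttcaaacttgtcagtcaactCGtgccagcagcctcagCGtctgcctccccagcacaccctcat
The Eps8l1 window holds 0 CG dinucleotides at a GC content of 57.3%, as do 5.47% of 33469 promoters in that table. The Palmd window holds 9 at 52.3% GC, near the median of 7 over all promoters. Among their relatives, the Palm window holds 36, that of Eps8l2 17 and that of Eps8l3 5, and Pakap has 2 windows with 39 and 12. Eps8 and Palm3 have no entry. The arrays measured RNA only, so no value here bears on the use of these starts.

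Among the partners of Eps8 the share of calls was near that of all gene names. Of 25 genes listed for Eps8 partners and EGF receptor signalling, 23 were tested and 2 were called, both lower in mucosa cells, where 6.62% of all gene names were called in either direction, and the median log2 ratio was -0.28 against 0.01 for all gene names. Erbb2, which encodes a receptor kinase that pairs with other receptors of the EGF family, had -1.58 ± 0.24 with an adjusted p of 0.0111 by limma. Without replicate 1 or 2 its adjusted p was 0.0556 or 0.0553. Cdh5, which encodes the VE-cadherin of endothelial junctions, had -1.57 ± 0.67 with an adjusted p of 0.0340, and -0.82 ± 0.63 at its other probe. Leaving out any single replicate raised its adjusted p to 0.0653 to 0.0987. Egfr itself had 0.26 ± 1.17, Abi1 0.66 ± 0.56 and Sos1 -0.85 ± 1.25, none of them called.

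The WAVE, N-WASP and Arp2/3 complexes nucleate branched actin. Of their 20 tested genes, 0 were called by limma, against 6.62% of all gene names, and 1, the Arp2/3 subunit gene Arpc1a, had an unadjusted p under 0.05, against 23.8%. The median log2 ratio was -0.20. The largest ratio, -0.86 ± 1.25 for Nckap1l, a WAVE complex subunit of blood cells, had an adjusted p of 0.322.

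Genes for capping, severing and bundling of actin, the activities closest to that of Eps8, were called in both directions. Among 20 tested genes, 3 had a call for higher and 1 for lower levels in mucosa cells, against 3.24% and 3.39% of all gene names. The median log2 ratio was 0.03. Actn1, which encodes the crosslinker alpha-actinin 1, had ratios of 2.09, 2.64, 2.50 and 2.63, with a mean of 2.46 ± 0.26 and an adjusted p of 0.00328 by limma. Its other probes gave 2.36 ± 0.35 and 2.48 ± 0.14. Pls3, which encodes the bundling protein plastin 3, had 1.50 ± 0.47 with an adjusted p of 0.0225, and 0.0555 to 0.103 with any replicate left out. Actn3, the fast-muscle alpha-actinin, was the third higher gene at 1.22 ± 0.30 and was named after its values were seen. It was not called with any replicate left out, with adjusted p of 0.0678 to 0.117 by limma, or by the deposited value table, with 0.0564. Tmod2, a neuronal tropomodulin that caps the slow-growing end of filaments, had -2.63 ± 1.33 with an adjusted p of 0.0323. It was not called without replicate 1, 2 or 4, with adjusted p of 0.125, 0.111 and 0.0958 by limma. No ratio in this list reached that of Eps8l1, but Eps8l1 was chosen for its large ratio and 99.98% of all gene names had a lower one.

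Genes for proteins that, like paralemmin, sit under the membrane were called in 1 direction. Of 23 tested genes of the membrane-anchored and cortical cytoskeleton, 4 were called, all lower in mucosa cells. Of all gene names, 3.39% were called lower and 6.62% in either direction. The median log2 ratio of the list was -0.40. Epb41l3, a protein 4.1 family linker gene, had -2.33 ± 1.27 with an adjusted p of 0.0409 by limma, and 0.128, 0.111 and 0.125 without replicate 1, 3 or 4. Marcksl1, a lipid-anchored actin-binding protein gene, had -1.28 ± 0.20 with an adjusted p of 0.0193, and 0.0808, 0.100 and 0.0629 without replicate 1, 2 or 4. The adducin gene Add3 had -1.15 ± 0.48 with an adjusted p of 0.0494, and 0.0965 to 0.149 with any replicate left out. The ezrin gene Ezr, named after its values were seen, had -1.11 ± 0.21 with an adjusted p of 0.0305, and 0.0802 to 0.141 with any replicate left out. The deposited value table and median centring also ended its call, with adjusted p of 0.0601 and 0.0674 by limma. The direction of these calls is that of Palm, which was not called, and opposite to that of Palmd.

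**Figure D3:**
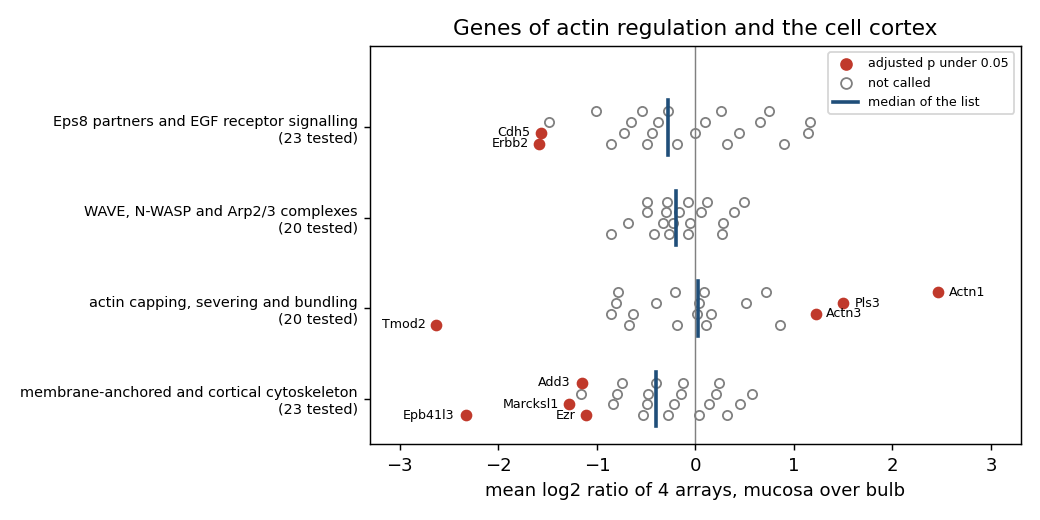
Mean log2 ratio of mucosa over bulb cells for each tested gene of 4 lists, with called genes in red, other genes as open circles and the median of each list as a blue bar. Called genes lie on both sides of 0 for capping, severing and bundling, and below 0 for Eps8 partners and for the membrane-anchored and cortical cytoskeleton. The genes for branched actin nucleation have no call.

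Some lists of cell type markers differed in the same contrast, and others had few calls or none. In bulk RNA, fewer cells of a type and less RNA per cell cannot be told apart. For comparison with each marker list here and below, 3.24% of all gene names were called higher and 3.39% lower. Of 12 markers of ensheathing and Schwann glia, 7 were called lower in mucosa cells and 0 higher, with a median log2 ratio of -1.36, and their summed normalised intensity, on the linear scale as for the sums below, was 20142 to 22001 in mucosa cells, against 45542 to 58443 in bulb cells. Fabp7, Cdh19 and Sox10 had -2.94 ± 0.49, -2.44 ± 0.98 and -1.87 ± 0.55, and the brightest, the neurotrophin receptor gene Ngfr, had -1.27 ± 0.23. The limma call of Cdh19 was lost when replicate 1 or 4 was left out (adjusted p of 0.0711 or 0.0705), Sox10 was not called without replicate 1, 2 or 4 (0.0571 to 0.0755), and Ngfr not with any 1 replicate left out (0.0624 to 0.107). All 12 were well above background on all 4 arrays in both cells. From 82.8% to 91.1% of all spots passed that flag, so it does not identify a cell type.

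Among 8 markers of smooth muscle and mural cells, 6 were called higher in mucosa cells and 0 lower, against 3.24% and 3.39% of all gene names. Their median was 1.69, with a summed level of 99264 to 113262 in mucosa cells, against 18418 to 29921 in bulb cells. Cnn1 had 2.70 ± 0.71, Cspg4 2.65 ± 0.31 and Tagln 2.46 ± 0.24. Of the 2 not called, Des had 0.23 ± 0.30 and Rgs5 went the other way with -2.45 ± 2.29. Of 10 fibroblast markers, 4 were higher and 1, Dcn (-2.01 ± 0.95), was lower, with a median of 0.88 and a summed level of 277690 to 321056 in mucosa cells, against 101589 to 151984 in bulb cells. Thy1 had 3.90 ± 0.71, Col1a2 2.27 ± 0.45 and Col1a1 1.82 ± 0.12, whereas Dcn was not called without replicate 2, 3 or 4, with adjusted p of 0.117, 0.0793 and 0.104 by limma. Both of these lists had higher sums in every mucosa sample than in any bulb sample, as had the epithelial and skeletal muscle lists below. Such sums weigh the brightest genes most. For single gene names, a separation in this direction was found for 11.5% of all names.

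Of 9 epithelial markers, Krt8 was higher (2.64 ± 0.28) and Cdh1 lower (-2.40 ± 0.37) in mucosa cells, with a median of 0.35 and a summed level of 10532 to 18132 in mucosa cells, against 4811 to 5953 in bulb cells. Of 8 skeletal muscle markers Tnnt3 was higher (2.26 ± 0.46), and the brightest of them, Actc1, had 0.23 ± 0.39. Their median was 0.23, and their sum was 7581 to 10926 in mucosa cells, against 6338 to 7082 in bulb cells. Of 7 endothelial markers Tek was higher (1.51 ± 0.79) and Cdh5 lower, with a median of 0.44 and sums of 3168 to 4918 in mucosa cells, against 2605 to 4680 in bulb cells. Tek was not called without replicate 1, 2, 3 or 4, with adjusted p of 0.0746 to 0.150 by limma. Of 8 neuronal markers Nefl was lower (-2.78 ± 0.24), while the brightest, Tubb3, had -0.15 ± 0.38. Their median was 0.16, with sums of 1671 to 2147 in mucosa cells, against 2308 to 2849 in bulb cells. Of 5 macrophage and microglia markers 0 were called by limma and 0 had an unadjusted p under 0.05, with a median of -0.81 and sums of 6567 to 12379 in mucosa cells, against 7711 to 16272 in bulb cells. The brightest of these, C1qa, had -0.26 ± 0.93, and -0.70 ± 1.29 at its other probe. The replicates differed, however, as each of these markers had a ratio above 0 in replicate 1 and below 0 in replicates 3 and 4. Cd68, with the widest spread, had 1.84, 0.75, -2.34 and -3.48. None of the tested markers was below the background limit on all arrays of either cell group. The part of these other cell types in the ratios of Eps8l1 and Palmd was not tested.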

How the data were processed

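Cultured ensheathing cells of rat mucosa and bulb were measured on 4 two-colour arrays of 45018 features. Per the file headers, Agilent Feature Extraction 10.5.1.1 made the deposited linear intensity signals, which are not normalised. Version 9.1 is given in the submitters' processing notes. The deposited value table holds the log10 ratio of Cy5 over Cy3 and was an alternative; its values equal the scanner files' ratios, and 0 of its columns lack a sample. Array names and rn4 coordinates are the files' own.

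Mean signals and median backgrounds were corrected by normexp (offset 50) and loess (limma 3.58.1, R 4.3.3), leaving out control and outlier spots. A probe was tested if well above background in 1 or both channels on 3 or more arrays, in at least 0.5 of its spots, which left 36713 probes; 4263 failed and 36 lacked a ratio. The brightest probe stood for each of 31868 names. The mean ratio was tested against 0 with lmFit and eBayes (6.36 degrees of freedom), with Benjamini-Hochberg adjustment over all names. The pairing is that of the array and is stated in the design text. The procedure was tested on simulated data.

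The members, lists and tests were chosen with earlier results of these data known. Named were the members and their relatives, for each list the 3 called genes with the largest ratios in either direction (1 gene where 0 were called), the 3 symbols nearest to Eps8l1 and Palmd and those next to them by rank, and per marker list up to 3 called genes and the brightest marker. Egfr, Abi1, Sos1, Arpc1a, Des, Rgs5 and Cd68 were named outside this rule, as were the neighbouring genes and those said to be. Alternatives were no background subtraction, offset 16, median centring, the value table, no filter or a strict one, the mean over probes, outlier spots kept, saturated probes left out, unpaired channels and each replicate left out. Python 3.11.15 with pandas 2.3.3, numpy 2.4.6 and matplotlib 3.10.9 served for tables and figures.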

Additional observations from a re-analysis of the deposited data

Results flagged for a closer look

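Of 27 groups of 4 levels examined, 2 held a sample far from the other 3, where chance gives about 1 in 20 groups. The bulb level of Eps8l2 in replicate 1 was 8.06, against 6.03 to 6.30 in the other 3 bulb samples, and it was the only bulb sample in which that probe was well above background. The bulb level of Akap2 in replicate 1 was 11.84, against 11.31 to 11.40 in the others.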

How the results depend on the processing

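Eps8l1 and Palmd had log2 ratios of 4.47 to 5.38 and 4.30 to 5.63 over all alternatives run, and Palm and Eps8 kept their sign and were not called under any of them. By the deposited value table Eps8l1 had 5.38, Eps8l2 1.36, Eps8l1 minus Eps8 6.05 and Palmd minus Palm 6.63. The dimmer Eps8 probe, an alternative chosen after seeing the data, had -0.16. Treating the channels as unpaired, with no replicate block, called 1740 names higher and 1743 lower, against 1031 and 1079 with the pairing. It gave Eps8l3, at 0.79, an adjusted p of 0.0253 by limma, so 1 of the 2 other family genes was called. It also gave 6 calls among Eps8 partners and 7 among capping, severing and bundling genes. It called neither Eps8, Palm nor Akap2. The value table called 696 names lower, with 1 call each among Eps8 partners, capping genes and membrane-anchored genes. Median centring moved the median ratio of all names to 0.08 and gave 59.6% of calls higher against 48.9%, with 5 calls among Eps8 partners and 2 among membrane-anchored genes. No filter on dim probes left 2 calls among membrane-anchored genes, and no background subtraction gave 1 in the branched actin list. Of the named genes with a call, 9 lost it by the value table (Actn3, Add3, Cdh5, Dcn, Epb41l3, Ezr, Pls3, Tek and Tmod2), 3 with no filter (Add3, Epb41l3 and Tek), 2 at offset 16 (Add3 and Tek) and 2 with median centring (Add3 and Ezr).

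With 1 replicate left out, 282 to 541 names were called higher and 258 to 526 lower. The 4 larger lists then held 0 to 1, 0 to 1, 1 to 2 and 0 to 1 calls, for Eps8 partners, branched actin, capping and membrane-anchored genes in that order. C1qa had -0.54 to 0.12 and Tubb3 -0.26 to 0.00012, both with a reversed sign at the upper end and neither called. These fits also held fewer arrays, and the cause of the changes was not tested. Signal over background limits Eps8l2 and the bulb side of the EST probe beside Palmd. It also limits the fold sizes of Palmd and Eps8l1, whose bulb signals were low.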
